A study of Mus musculus with 9 samples.

Results

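The genes described here are 10 transcriptional regulators of the naive state of T cells, namely Tcf7, Lef1, Foxo1, Foxp1, Klf2, Klf3, Bach2, Satb1, Ets1 and Id3. They were chosen by name, with earlier results of these data known, from the 55487 gene identifiers in the deposited tables, and each matched 1 identifier. Polyadenylated RNA was sequenced from CD4+ T cells with a naive label, taken from lymph nodes of WT mice of strain C57BL6/J. The 9 libraries form 3 groups of 3: cells prepared freshly with no treatment (fresh), cells kept in culture for 20 h with no treatment (cultured), and cells cultured for 20 h in the presence of 10 ng/mL of recombinant IL-1b (IL-1b-treated). All 3 groups share tissue, genotype and strain. The labels give no age of the mice and do not say whether the replicates of a group came from separate animals or cultures, so that p-values may measure only a technical spread between libraries.

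A naive T cell circulates between blood and lymph nodes in a resting state until it meets its antigen, and this state is actively held by transcription factors. TCF-1 (Tcf7) and LEF-1 (Lef1) are HMG-box proteins that set T cell identity, Foxo1 is a forkhead factor that is active while PI3K and Akt signalling is quiet and drives genes of homing and survival, and KLF2 drives genes of egress from lymph nodes. FOXP1, KLF3 and BACH2 act largely as repressors, SATB1 organises chromatin, ETS1 is the founding ETS factor, and ID3 binds E proteins and keeps them from DNA.

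Total expected counts per library ranged from 13518814 to 23056686, and all 10 genes passed the filter on low counts that left 13043 genes for testing. The 10 markers of CD4 T cells summed to 8555.9 to 8668.7 TPM (RSEM's length-corrected share of transcripts) in fresh, 6294.8 to 6523.5 in cultured and 5980.9 to 6321.8 in IL-1b-treated libraries, with none at 0, and 6 of the 10 fell and 4 rose in cultured against fresh cells. Markers of other cells were present too. All 20 B cell markers fell in cultured against fresh cells, and their summed level was 793.7 to 971.5 TPM in fresh, 201.2 to 210.5 in cultured and 174.8 to 196.2 in IL-1b-treated libraries, with none of the 20 at 0. Summed levels in the same order were 20.6 to 52.8, 0.7 to 1.2 and 0.5 to 2 TPM for 12 neutrophil markers (S100a8, Camp, Ltf, Lcn2 and Retnlg at 0 in cultured cells, and Camp, Lcn2, Retnlg, Cxcr2, Mmp8, Csf3r and Elane in IL-1b-treated cells). They were 44.1 to 48.9, 7.8 to 9.9 and 5.6 to 7.1 TPM for 8 NK cell markers (Ncr1, Klra8 and Klre1 at 0 with IL-1b), 258.1 to 268.8, 247 to 252.5 and 276.3 to 285.9 TPM for 11 myeloid markers (Cd14 at 0 in both cultured groups), and 42.8 to 48.4, 48.5 to 58.8 and 42 to 50.4 TPM for 6 CD8 T cell markers (Klrc1 at 0 in both cultured groups). The myeloid sum hides falls of single markers. Of the 10 tested, 6 fell and 1 rose in cultured against fresh cells (median log2 fold change -2.94). In IL-1b-treated against fresh cells 6 fell and 3 rose (median -2.43). The 8 regulatory T cell markers went from 98 to 118.3 TPM in fresh to 448.9 to 475.3 in cultured and 404.2 to 463.4 in IL-1b-treated libraries, and Foxp3 itself was at 1.27 ± 0.391, 1.81 ± 0.799 and 1.16 ± 0.182 TPM (SD, n = 3), called higher after culture (1.11 on the log2 scale, adjusted p = 0.00852). The 14 memory or effector markers went from 282.1 to 301.1 through 560.2 to 579.7 to 660.6 to 682.4 TPM, with Il17a at 0 in all groups and Ifng in both cultured ones. This rising sum does not stand for most of them. Of the 8 tested, 2 rose and 3 fell in cultured against fresh cells (median log2 fold change -0.7). In IL-1b-treated against fresh cells 2 rose and 5 fell (median -1.6). B cells also express Foxo1, Foxp1, Klf2, Bach2, Ets1 and Id3, and the part of these other cells, and of the lower sum of the CD4 T cell markers, in the differences of the 10 genes was not tested. In bulk RNA, fewer cells of a type and less RNA per cell cannot be told apart.

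In fresh cells the genes spanned a wide range of levels. Tcf7 was the highest, at 1157 ± 23.3 TPM (SD, n = 3), above 99% of tested genes, and Id3 the lowest, at 37.5 ± 2.17 TPM, above 68.5%. Between them stood, in falling order, Ets1 at 600.1, Satb1 at 440.4, Lef1 at 379, Klf2 at 346, Foxp1 at 177, Klf3 at 130, Foxo1 at 91 and Bach2 at 46.7 TPM, and no 2 neighbours in this order overlapped between libraries. TPM corrects for transcript length, so it allows genes to be compared with each other. After culture Klf2 and Lef1 stood above Satb1, and Bach2 above Foxo1. Both culture groups had the order Tcf7, Ets1, Klf2, Lef1, Satb1, Foxp1, Klf3, Bach2, Foxo1, Id3, in which the libraries of Foxp1 and Klf3 overlapped and those of the other neighbours did not. The members' share of all counts was 0.683 to 0.696% in fresh, 0.526 to 0.54% in cultured and 0.432 to 0.437% in IL-1b-treated libraries. Over the same groups the share of ribosomal protein genes was 8.31 to 8.56%, 11.66 to 11.78% and 15.77 to 16.11%.

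**Figure D1:**
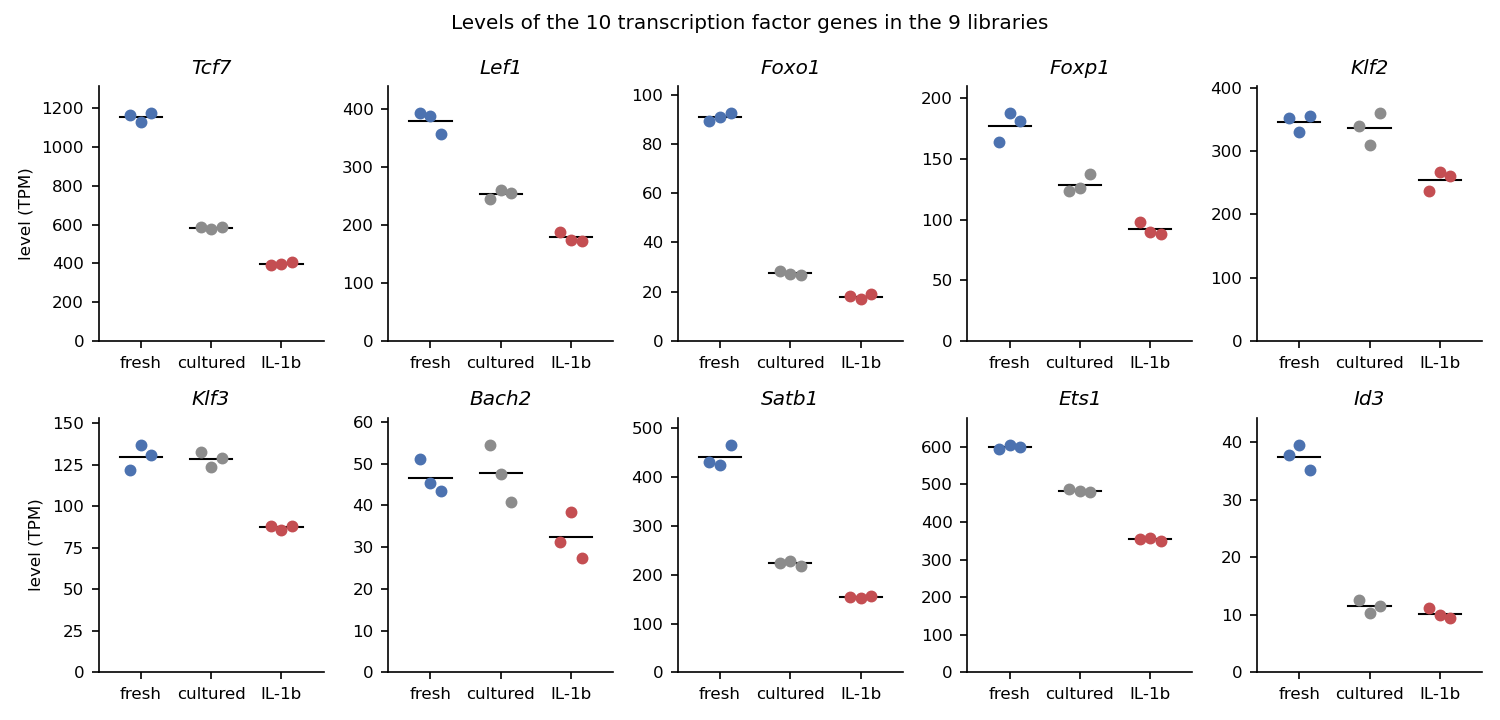
Level of each of the 10 genes in TPM (vertical axes from 0, a scale per gene) in the 9 libraries, with points for libraries and bars for group means. Foxo1 and Id3 drop most between fresh and cultured cells, while Klf2, Klf3 and Bach2 overlap between those groups and are lower with IL-1b.

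The genes lie on 8 chromosomes of mm10. Tcf7 (ENSMUSG00000000782) is at chr11:52252371-52283014 on the minus strand, Lef1 (ENSMUSG00000027985) at chr3:131110471-131224356 on the plus strand, Foxo1 (ENSMUSG00000044167) at chr3:52268336-52353221 on the plus strand and Foxp1 (ENSMUSG00000030067) at chr6:98925338-99522721 on the minus strand. Klf2 (ENSMUSG00000055148) is at chr8:72319033-72321656 and Klf3 (ENSMUSG00000029178) at chr5:64803388-64832901, both on the plus strand. Bach2 (ENSMUSG00000040270) spans chr4:32238804-32586108 on the plus strand, Satb1 (ENSMUSG00000023927) chr17:51736187-51833290 on the minus strand, Ets1 (ENSMUSG00000032035) chr9:32636221-32757820 on the plus strand and Id3 (ENSMUSG00000007872) chr4:136143497-136145755 on the plus strand. Reads of overlapping genes may not be fully separated, since the strand setting of the counting is not given in the sources used here. By mean TPM over the 9 libraries, the largest overlapping genes were C230096K16Rik, at 8.358% of the Klf3 level on the same strand, and Gm20033, at 7.658% on the opposite strand. Those of the other members had means at or below 4.731%, and Klf2 and Id3 had none. The share in a single library can be higher, as with Gm20402 in Foxo1, which ranged from 0 to 13.69 TPM.

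Upstream sequences are shown for the 2 members with a single transcript, Foxo1 and Klf2, and for an internal start each of Tcf7 and Bach2. Foxo1 and Tcf7 fell in culture, and Klf2 and Bach2 rose in counts relative to the typical gene. In TPM the fresh and cultured libraries of Klf2 and of Bach2 overlapped. The sequences are RefSeq windows of GRCm38.p6, cut to the bases before the start site that lie outside annotated exons. They are written 5′ to 3′ on the strand of the gene, with motif matches in capitals. Foxo1 is chr3:52268087-52268335 (plus), Klf2 is chr8:72318812-72319032 (plus), Tcf7 is chr11:52282596-52282711 (minus, inside the longer form of the gene) and Bach2 is chr4:32417185-32417434 (plus, inside the gene).
Foxo1: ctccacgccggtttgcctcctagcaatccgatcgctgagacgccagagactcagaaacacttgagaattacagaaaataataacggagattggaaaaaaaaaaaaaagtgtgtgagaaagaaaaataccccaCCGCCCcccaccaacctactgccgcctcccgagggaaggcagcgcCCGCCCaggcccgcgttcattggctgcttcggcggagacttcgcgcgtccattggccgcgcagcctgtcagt
Klf2: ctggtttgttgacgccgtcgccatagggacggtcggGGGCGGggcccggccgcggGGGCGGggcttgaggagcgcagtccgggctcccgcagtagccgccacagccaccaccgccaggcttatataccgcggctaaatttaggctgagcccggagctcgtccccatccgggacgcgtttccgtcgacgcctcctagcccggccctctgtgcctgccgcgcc
Tcf7: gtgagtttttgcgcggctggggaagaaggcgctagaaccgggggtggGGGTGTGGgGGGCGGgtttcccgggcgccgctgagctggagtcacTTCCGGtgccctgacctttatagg
Bach2: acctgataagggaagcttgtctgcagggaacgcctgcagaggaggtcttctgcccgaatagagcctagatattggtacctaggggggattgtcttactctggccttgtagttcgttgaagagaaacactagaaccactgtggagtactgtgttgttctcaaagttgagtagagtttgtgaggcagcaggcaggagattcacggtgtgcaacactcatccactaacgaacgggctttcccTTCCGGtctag
The capitals mark GC boxes (GGGCGG or its complement CCGCCC), which Sp and KLF proteins bind, in Foxo1, Klf2 and Tcf7, a KLF motif (CCACACCC, here as GGGTGTGG) in Tcf7, and an ETS motif (CCGGAA, here as TTCCGG) in Tcf7 and Bach2. No 2 of these matches share a base. Both strands of 19 windows of 9 members, each of 250 bases before and 50 after a start with some windows overlapping, were searched for 8 motifs. Ets1 had no window and was not searched. A GC box was in 12 of the 19 windows, against 35.7% of 32851 windows of all genes. By gene it was in at least 1 window of 8 of the 9 members, all but Bach2. Members differ in their number of windows, and no share by gene was taken over all genes. A forkhead motif (GTAAACA, 3.6% of all windows) was in 1 window, of Tcf7, at position 1 after its internal start and so beyond the stretch printed. A TCF/LEF motif (CTTTGAA, 5.1%) was in 1 window, of Foxp1, the KLF motif (3.6% of all windows) in 1 and the ETS motif (14.9%) in 2. An E box (CACCTG, 20.2%) was in 5 windows, of Tcf7, Lef1, Foxp1 and Satb1. The cAMP element (TGACGTCA, 1.8%) and an NF-kB motif (1.6%) were in 0 of the 19. These are matches of letters only.

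The comparison of cultured with fresh cells asks what 20 h outside the body did without the cytokine. Of the 10 genes, 6 fell (Foxo1, Id3, Tcf7, Satb1, Lef1 and Ets1) and 3 rose (Bach2, Klf3 and Klf2) by the quasi-likelihood test of edgeR (Benjamini-Hochberg adjusted p, threshold 0.05). Such calls are common here: 58.2% of all 13043 genes changed, 28.9% down and 29.4% up. The median log2 fold change was -0.14 over the members and 0 over all genes. Fold changes from this test are relative to the typical gene, because TMM scaling puts that gene at 0, whereas a level in TPM is a share of all transcripts. On the TPM scale the median of all genes was -0.21 and that of the members -0.52, and 7 members had all cultured libraries below all fresh ones, against 43.1% of all genes.

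Foxo1 fell most. Its libraries held 89.33, 91.08 and 92.48 TPM in fresh cells, 28.3, 27.12 and 26.77 in cultured cells, and 18.05, 17.04 and 18.88 in IL-1b-treated cells, and the 3 groups did not overlap. The cultured level was 30.1% of the fresh one, with a log2 fold change of -1.5 ± 0.04 (SE, adjusted p = 3.42e-19), lower than that of all but 4.1% of tested genes. The other forkhead member, Foxp1, behaved differently. It held 163.6, 187.49 and 181.02 TPM in fresh cells, 123.15, 125.68 and 137.22 in cultured cells and 98.23, 89.74 and 88.31 in IL-1b-treated cells, again without overlap, but its counts relative to the typical gene differed by only -0.01 ± 0.04 on the log2 scale (adjusted p = 0.745) between cultured and fresh cells. The deposited mean length of Foxp1 transcripts was 2985, 3417 and 3470 bases in the 3 groups. With each library's effective length as an offset the difference was -0.22 (adjusted p = 0.0118), and after correction for the trend of counts on length and GC content it was 0.25 (adjusted p = 1.23e-06). The sign for Foxp1 thus turned under the joint correction for length and GC content and not under the length offset. That offset adjusts only for changes of a gene's own length between libraries, not for the trend across genes of different length. The 2 settings therefore do not separate the part of length from that of GC content.

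In TPM, Tcf7 and Satb1 fell by almost the same share in culture. Tcf7 held 1166.66, 1130.16 and 1173.61 TPM in fresh cells, 587.75, 576.85 and 589.26 in cultured cells, and 390.25, 398.28 and 408.38 in IL-1b-treated cells. Satb1 held 431.03, 424.05 and 466.1 TPM in fresh cells, 224.6, 227.6 and 218.49 in cultured cells, and 154.73, 151.6 and 157.44 in IL-1b-treated cells. In both genes every fresh library was above every cultured one and every cultured one above every IL-1b-treated one. Cultured levels were 50.5% (Tcf7) and 50.8% (Satb1) of fresh levels in TPM, and log2 fold changes were -0.73 ± 0.03 (adjusted p = 1.35e-16) and -0.63 ± 0.03 (adjusted p = 3.84e-15). Lef1, the partner of Tcf7, fell less, by 0.21 ± 0.03 on the log2 scale (adjusted p = 2.35e-06), with 393.06, 388.7 and 356.56 TPM in fresh, 244.48, 261.36 and 255.79 in cultured and 188.37, 174.89 and 173.19 in IL-1b-treated libraries. Its groups did not overlap either.

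Id3 was the least counted member, with 294 to 539 expected counts in fresh and 128 to 163 in the other libraries. It held 37.7, 39.55 and 35.22 TPM in fresh, 12.64, 10.24 and 11.6 in cultured and 11.25, 9.93 and 9.38 in IL-1b-treated libraries, so that both culture groups overlapped with each other and lay far below the fresh cells. It fell by 1.31 ± 0.12 on the log2 scale in culture (adjusted p = 3.34e-09), to 30.7% of its fresh TPM. Ets1 went from 595.26, 605.51 and 599.65 TPM in fresh to 486.65, 481.92 and 479.26 in cultured and 355.41, 356.54 and 349.93 in IL-1b-treated libraries. The groups did not overlap, and the cultured level was 80.4% of the fresh one in TPM. Relative to the typical gene its fall of 0.07 ± 0.02 on the log2 scale (adjusted p = 0.00429) was not called after the correction for length and GC content (0.01, adjusted p = 0.633).

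Klf2, Klf3 and Bach2 rose relative to the typical gene in culture and did not rise in TPM. Klf2 held 352.1, 329.64 and 355.27 TPM in fresh, 340.26, 309.78 and 359.53 in cultured and 236.1, 266.79 and 260.03 in IL-1b-treated libraries. Klf3, which binds the same CACCC-type sites, held 121.98, 137.01 and 130.86, then 132.41, 123.44 and 129.11, then 88.38, 85.46 and 88.19 TPM. Bach2 held 51.24, 45.39 and 43.42, then 54.52, 47.54 and 40.93, then 31.18, 38.5 and 27.33 TPM. In all 3 genes the fresh and cultured libraries overlapped in TPM, and the IL-1b-treated ones lay below both. The log2 fold changes in culture were 0.2 ± 0.05 for Klf2 (adjusted p = 0.00103), 0.29 ± 0.03 for Klf3 (adjusted p = 1.88e-08) and 0.39 ± 0.05 for Bach2 (adjusted p = 5.59e-07). On log2(TPM + 1) they were -0.04, -0.02 and 0.02, with adjusted p-values of 0.621, 0.8 and 0.897 by limma, and after correction for length and GC content they were 0.5, 0.49 and 0.57, all called. With the effective length offset Bach2 was not called (0.27, adjusted p = 0.09).

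IL-1b-treated cells were set against cultured cells to find what IL-1b added over those 20 h. Of the 10 genes 8 fell and 0 rose, where 13.3% of all genes fell, 15.6% rose and 28.9% changed in all. The count of members that rose was also 0 at an unadjusted p threshold of 0.05, with DESeq2 and with limma-voom. The changes were small, with a median log2 fold change of -0.2 over the members against -0.01 over all genes. In TPM 9 members had all IL-1b-treated libraries below all cultured ones, against 45% of all genes, all but Id3. The TPM of the 9 lay between 65.7% (Foxo1) and 75.6% (Klf2) of the cultured level, and that of Id3, outside this range, was 88.6%. Cultured levels of the same 9 lay between 30.1% (Foxo1) and 102.1% (Bach2) of the fresh level. The median of all genes in TPM moved by -0.28 on the log2 scale with IL-1b, that of the members by -0.52.

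With IL-1b Bach2 fell by 0.35 ± 0.05 on the log2 scale (adjusted p = 1.24e-05), which brought its TMM-normalised CPM (counts scaled to library size) from 254 ± 9.36 in cultured to 199 ± 19.1 in IL-1b-treated cells (SD, n = 3), beside 194 ± 2.82 in fresh cells. Foxo1 fell by 0.29 ± 0.04 (adjusted p = 8.28e-06), Tcf7 by 0.24 ± 0.03 (adjusted p = 2.73e-07), Lef1 by 0.23 ± 0.03 (adjusted p = 5.02e-06) and Satb1 by 0.21 ± 0.03 (adjusted p = 2.9e-06). Klf3 fell by 0.19 ± 0.03 (adjusted p = 3.65e-05), Foxp1 by 0.14 ± 0.04 (adjusted p = 0.0059) and Ets1 by 0.12 ± 0.02 (adjusted p = 0.000152). Set beside their values in culture, with which this comparison shares the cultured libraries, Lef1 had -0.23 and -0.21, Tcf7 -0.24 and -0.73, Satb1 -0.21 and -0.63, and Foxo1 -0.29 and -1.5. Klf2 was not called (-0.08 ± 0.05, adjusted p = 0.228) and neither was Id3 (0.07 ± 0.13, adjusted p = 0.765). Klf2 was called without cultured replicate 2, at an adjusted p of 0.04.

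The share of genes that fell with IL-1b was higher among genes with longer transcripts. With the tested genes split into 4 length classes of equal size, 1.99% of the shortest class fell with IL-1b, 6.44% of the second, 14.7% of the third and 30% of the longest. In cultured against fresh cells these shares were 14.9, 26.8, 34.2 and 39.6%, and in IL-1b-treated against fresh cells 14.4, 28.2, 39 and 48.7%. Foxo1, Klf3, Bach2, Satb1 and Ets1 belong to the longest class, Tcf7, Lef1 and Foxp1 to the third, and Klf2 and Id3, which were not called, to the second and the shortest. After correction for length and GC content in each library, 556 of all genes fell and 2028 rose, against 1731 and 2037 without it. Of the 8 members 4 were still called, Lef1 at -0.18 (adjusted p = 7.7e-05), Bach2 at -0.15 (adjusted p = 0.0292), Satb1 at -0.13 (adjusted p = 0.000379) and Tcf7 at -0.11 (adjusted p = 0.000707). Foxo1 was then at -0.09 (adjusted p = 0.127), Klf3 at -0.03 (adjusted p = 0.476), Foxp1 at 0.03 (adjusted p = 0.681) and Ets1 at 0.01 (adjusted p = 0.812). With the effective length offset 917 of all genes fell and 1234 rose, and 6 of the 8 members were still called. Foxp1 (-0.17 ± 0.06, adjusted p = 0.0807) and Bach2 (-0.25 ± 0.12, adjusted p = 0.202) were not. The third IL-1b-treated library lay at 45.9 on principal component 3 (7% of the variance), the other IL-1b-treated ones at -19.8 and -18.4, and without it each of the 8 calls was kept.

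**Figure D2:**
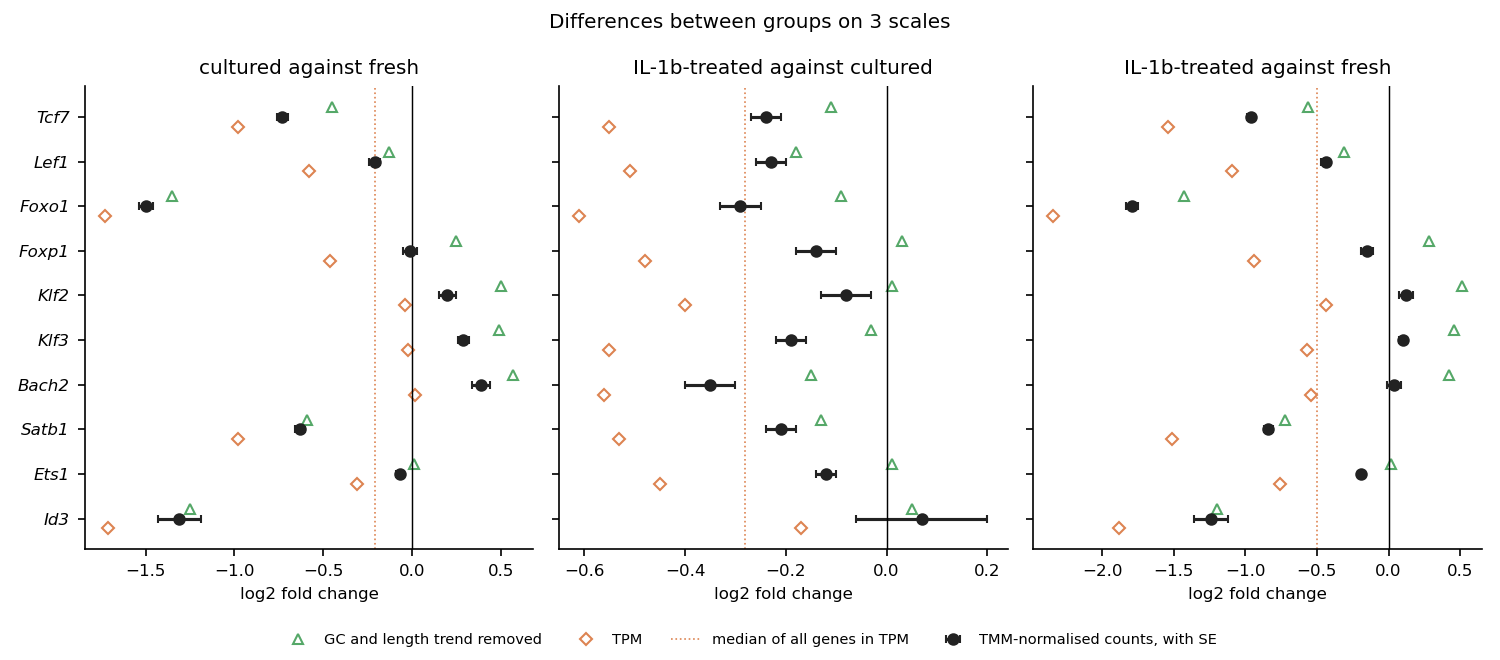
Log2 fold change (horizontal axes, a range per panel) of each gene in the 3 comparisons: filled circles with SE bars from TMM-normalised counts, open triangles after correction for length and GC content, open diamonds from TPM, and a dotted line at the TPM median of all genes. Foxo1 and Id3 lie far left in culture on all 3 scales, while with IL-1b Foxp1, Klf2 and Ets1 reach 0.01 to 0.03 after the length and GC correction.

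Against fresh cells, the IL-1b-treated cells combine culture and cytokine, and this comparison shares its libraries with the other 2. Here 7 members fell, 2 rose (Klf2 at 0.12 ± 0.05, adjusted p = 0.0342, and Klf3 at 0.1 ± 0.03, adjusted p = 0.00634), and Bach2 was not called (0.04, adjusted p = 0.516), where 65.5% of all genes changed, 32.6% down and 32.9% up. Foxo1 had the largest fall, 1.79 ± 0.04 on the log2 scale (adjusted p = 8.77e-21), to 19.8% of its fresh TPM. Id3 fell to 27.2% of its fresh TPM, Tcf7 to 34.5%, Satb1 to 35.1%, Lef1 to 47.1% and Ets1 to 59%, and Ets1 was not called after the length and GC correction (0.02, adjusted p = 0.372). Foxp1 stood at 51.9% with a log2 fold change of -0.15 (adjusted p = 0.000797), which was 0.28 after the length and GC correction. All 10 members lay below the fresh libraries in TPM without overlap, as did 56.4% of all genes, and by TPM with limma Klf2 (-0.44), Klf3 (-0.57) and Bach2 (-0.53) were lower. After the length and GC correction the same 3 were called higher, at 0.51, 0.46 and 0.42 (adjusted p of 8.3e-13, 5.48e-13 and 4.38e-08). The call of Klf2 was lost without fresh replicate 2 or IL-1b-treated replicate 2 or 3 (highest adjusted p 0.17), and with DESeq2 (adjusted p = 0.159), upper quartile scaling (adjusted p = 0.0676) and the effective length offset (adjusted p = 0.146), where Klf3 was at -0.02 (adjusted p = 0.755), and Bach2 was called without IL-1b-treated replicate 3 (adjusted p = 0.0325).

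Ratios of 2 genes within a library do not depend on how libraries are scaled. As ratios of TPM they do depend on the deposited transcript lengths. For 8 pairs and 3 comparisons the two-sided exact permutation test of 3 against 3 libraries cannot go below p = 0.1, which is an adjusted p of 0.185 over the 24 tests, so no ratio can pass the threshold. The ratio of Satb1 to Tcf7 was 0.38 in fresh, 0.382 in cultured and 0.387 in IL-1b-treated cells, with all groups overlapping and a log2 difference in culture of 0.01 against log2 SDs of 0.04 and 0.05 (exact permutation p = 0.9). Klf2 to Klf3 was 2.66, 2.62 and 2.91, likewise with overlap. The deposited mean length of Satb1 was 3663, 3941 and 3937 bases in the 3 groups, and that of Tcf7 2349, 2380 and 2366. In counts relative to the typical gene Satb1 fell by less than Tcf7 in culture, at -0.63 and -0.73 on the log2 scale. Other pairs came apart in culture. Tcf7 to Lef1 was 2.97, 2.91 and 3.29 in fresh, 2.4, 2.21 and 2.3 in cultured, and 2.07, 2.28 and 2.36 in IL-1b-treated libraries. Culture and IL-1b groups overlapped, and both lay below the fresh one (exact permutation p = 0.1 each).

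The ratio of Foxo1 to both of its relatives was lower after culture. Its ratio to Foxp1 was 0.514 in fresh and 0.213 in cultured cells, a log2 difference of -1.27, and its ratio to Foxo3, a second Foxo factor of T cells, went from 3.68 to 1.7, a log2 difference of -1.11, both without overlap (exact permutation p = 0.1). With IL-1b the ratio to Foxo3 was 1.5, again without overlap with cultured cells (1.42 to 1.55 against 1.64 to 1.77, exact permutation p = 0.1). Id3 to Id2, the second Id protein of T cells and a gene of effector cells, went from 0.733 to 0.168 and 0.154, the largest shift among the 8 pairs (log2 difference -2.13 in culture, exact permutation p = 0.1). Id3 fell while Id2 rose in culture, by 0.71 on the log2 scale (adjusted p = 1.95e-08). Ets1 to Ets2 went from 19.9 to 40.1 in culture without overlap (exact permutation p = 0.1), and Ets2 fell by 0.94 (adjusted p = 1.78e-09). Bach2 to Bach1 was 3.59, 3.01 and 3 in fresh, and 2.99, 2.59 and 2.07 in cultured libraries. The lowest fresh and the highest cultured library lie side by side without overlap.

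**Figure D3:**
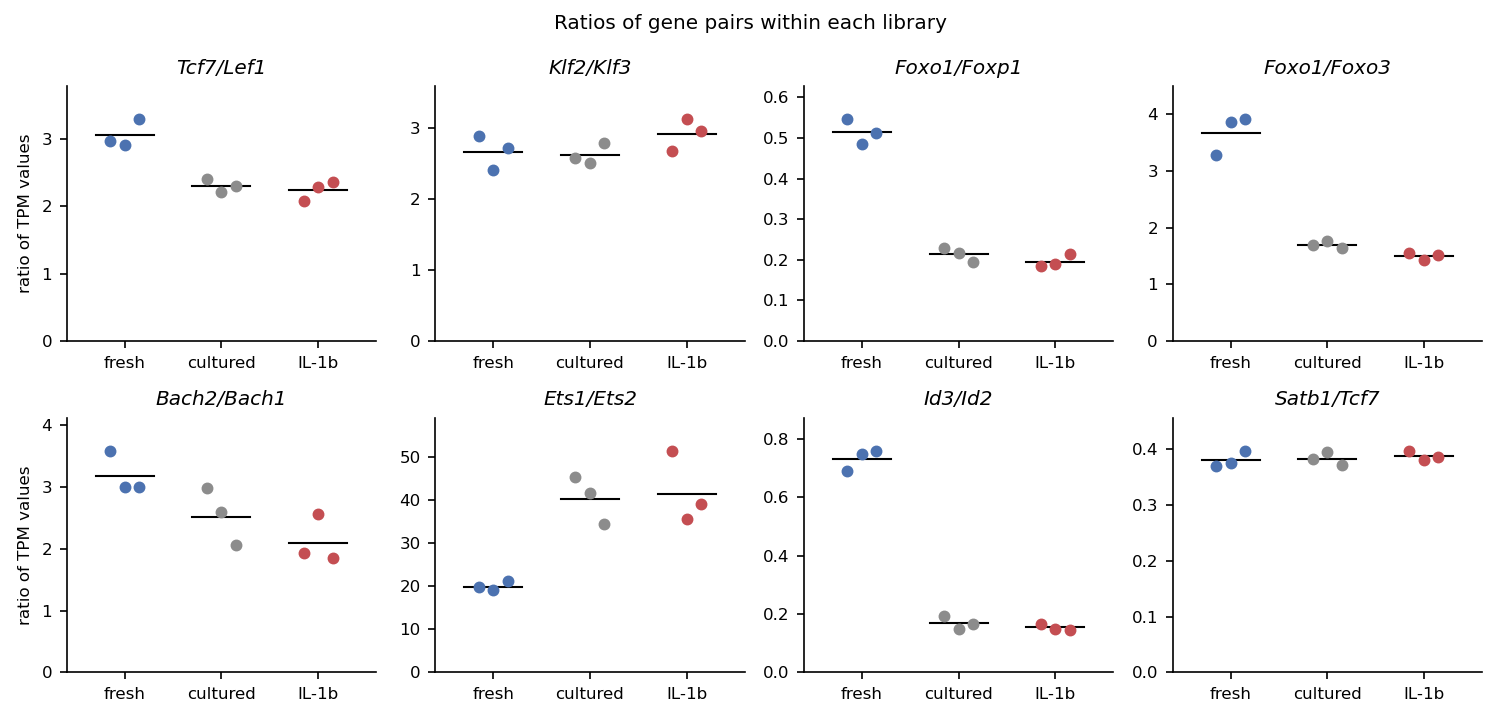
Ratio of the TPM values of 2 genes within each library (vertical axes from 0) for 8 pairs, with points for libraries and bars for geometric means of 3 libraries. Satb1/Tcf7 is level near 0.38, while Foxo1/Foxp1, Foxo1/Foxo3 and Id3/Id2 drop and Ets1/Ets2 rises between fresh and cultured cells.

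Among the members themselves, the closest patterns over the 3 groups, by the largest gap between centred group means of log2 CPM, were Foxp1 and Ets1 (0.03), Tcf7 and Satb1 (0.07), Klf2 and Klf3 (0.07), and Bach2 and Klf3 (0.08). Lef1 was nearest to Ets1 (0.13). Foxo1 and Id3 had no close match, at 0.3 from Id3 and 0.29 from Tcf7. These gaps are on TMM-normalised counts and depend on that scale. After the length and GC correction Foxp1 and Ets1 had unlike values in culture, as given above. The mean transcript length that the tables give, which moves when a gene shifts between long and short transcripts, could be tested for 8 members (Foxo1 and Klf2 have 1 transcript). It changed for 0 of 8 in each comparison by limma, where 0.0191% of 10457 genes changed with IL-1b, 0.631% in culture and 1.34% in IL-1b-treated against fresh cells. At an unadjusted p threshold of 0.05 it differed for 0 of 8 with IL-1b (6.99% of all genes), for 4 in culture (Lef1, Foxp1, Satb1 and Id3, 10.9%) and for 3 in IL-1b-treated against fresh cells (Foxp1, Klf3 and Satb1, 14.2%).

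Genes that work with the members are given by lists without the members. Among all genes 28.9% fell and 29.4% rose in culture, and 13.3% fell and 15.6% rose with IL-1b. On log2(TPM + 1) 4842 of all genes were called lower and 1877 higher in culture, and 4452 lower and 289 higher with IL-1b. After the length and GC correction these counts were 3226 and 3828 in culture, and 556 and 2028 with IL-1b. Beside Tcf7 and Lef1, 15 genes from a list of TCF and LEF cofactors and regulators of beta-catenin were tested. In culture 11 fell and 2 rose, with a median log2 fold change of -0.41 against 0 for all genes. Tle3, a Groucho co-repressor that TCF proteins recruit, fell by 1.14 (adjusted p = 3.76e-15), from 115 to 38.4 TPM. With IL-1b 9 of the 15 fell and 2 rose, a split that was 1 and 2 after correction for length and GC content. Bcl9l, a beta-catenin co-activator, fell by 0.3 (adjusted p = 1.13e-05), and was at -0.05 after the length and GC correction (adjusted p = 0.418). Of 7 further TCF, E and Id proteins 2 rose and 2 fell in culture, among them Tcf3, the E protein E2A that ID3 binds, which fell by 0.61 (adjusted p = 5.79e-09), and 1 rose with IL-1b, namely Id2 (0.28, adjusted p = 0.00371). The call of Id2 was lost under library size scaling (adjusted p = 0.0729), with the effective length offset (adjusted p = 0.0593), on log2(TPM + 1) (-0.05) and after the length and GC correction (adjusted p = 0.218).

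Beside Foxo1, 7 of 11 other forkhead genes fell and 1 rose in culture, and 5 fell with IL-1b. With the trend removed these counts became 2 lower and 4 higher in culture and 0 lower and 1 higher with IL-1b. With the effective length offset, which does not remove the trend across genes, they were 7 lower in culture and 3 lower with IL-1b. Foxk1, a forkhead factor of metabolism, was at -0.51 in culture (adjusted p = 2.54e-10) and at 0.02 after the length and GC correction. Of 17 regulators upstream of Foxo1, such as PI3K and Akt subunits, 11 fell and 4 rose in culture, which became 7 and 7 after the length and GC correction. Inpp5d, the phosphatase SHIP-1 that opposes PI3K, fell by 1.29 (adjusted p = 1.51e-16), from 124 to 38.5 TPM. Pik3cd, the catalytic PI3K subunit of lymphocytes, fell by 0.23 with IL-1b (adjusted p = 1.88e-06) and was at 0.02 after the length and GC correction.

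The listed targets of Foxo1 moved both ways. Of 18 besides Klf2, 10 rose and 6 fell in culture, with a median of 0.3, and 4 rose and 2 fell with IL-1b, where log2(TPM + 1) gave 9 lower calls only. Sesn1, a stress-response gene, rose by 1.45 in culture (adjusted p = 3.68e-20), and S1pr1, the receptor for egress, by 0.65 (adjusted p = 1.64e-15). Ccr7, the lymph node homing receptor, rose by 0.28 (adjusted p = 1.77e-08), which was 0.04 on log2(TPM + 1) (adjusted p = 0.279). Il7r, the interleukin-7 receptor, fell by 0.16 (adjusted p = 0.000115). Among those that rose with IL-1b relative to the typical gene were Sesn1 (0.34, adjusted p = 2.01e-08), Ccr7 (0.16, adjusted p = 0.000238) and Il7r (0.1, adjusted p = 0.0166). On log2(TPM + 1) these were 0.02, -0.17 and -0.24, and by library size alone Ccr7 (0.04) and Il7r (-0.02) were not called. Of 10 listed Klf2 targets, some shared with Foxo1, 6 rose and 3 fell in culture, and 1 rose and 2 fell with IL-1b, where log2(TPM + 1) gave 5 lower calls only.

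**Figure D4:**
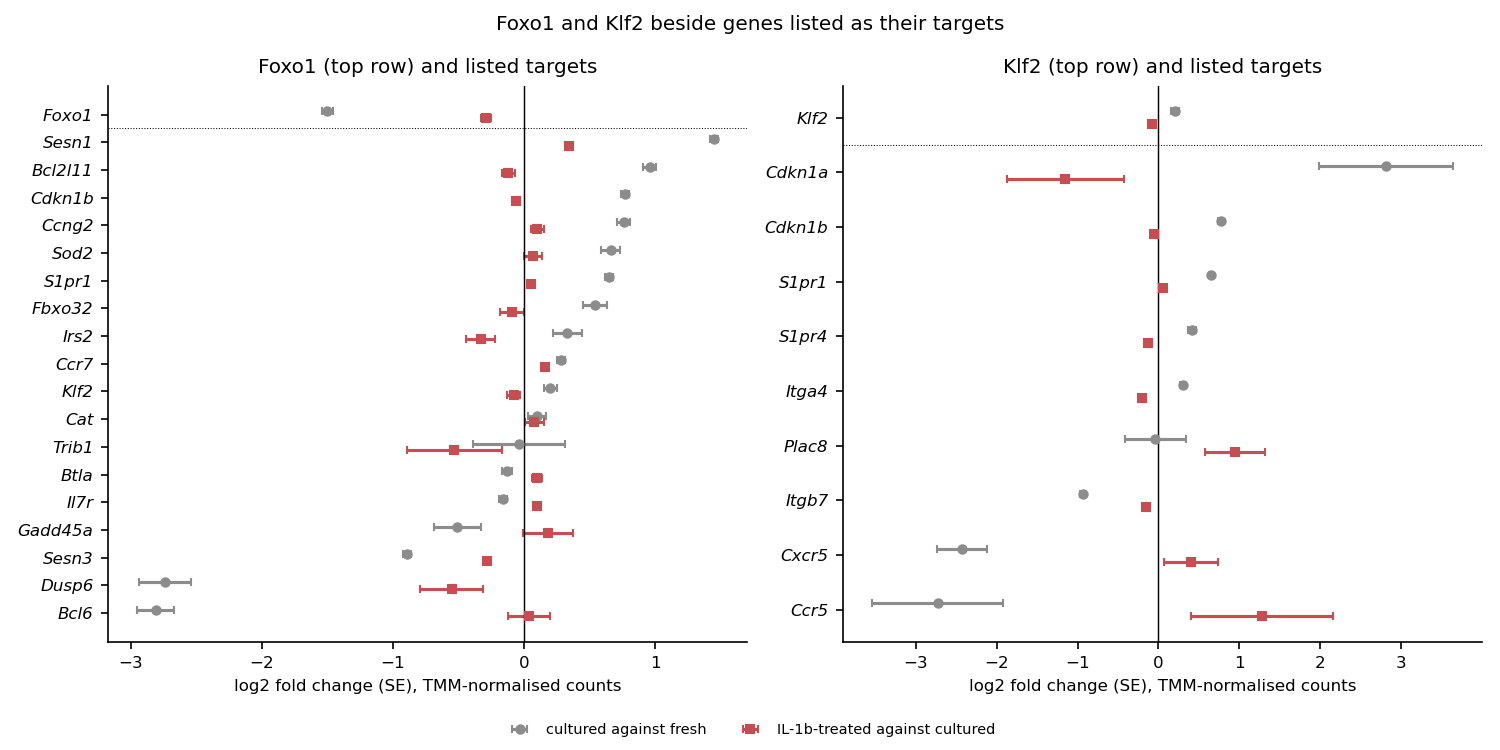
Log2 fold change with SE (horizontal axes, TMM-normalised counts) of Foxo1 and Klf2 in the top rows and of their listed targets, save 1 that is not shown, below, with grey circles for cultured against fresh and red squares for IL-1b-treated against cultured cells. Foxo1 sits at -1.5 in culture, while Sesn1 sits at 1.45.

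Among 13 other KLF and Sp genes 5 rose and 5 fell in culture (2 and 5 on log2(TPM + 1), 7 and 4 after correction for length and GC content), and Klf6 rose by 1.14 (adjusted p = 1.53e-17), from 71 to 126 TPM. With IL-1b 1 rose and 4 fell, which after the length and GC correction became 5 higher calls only, and the riser, Sp3, was at 0.29 (adjusted p = 9.53e-07) and at -0.05 on log2(TPM + 1). Of 7 genes other than Bach2 from a list of Bach, small Maf and related genes, 4 rose and 3 fell in culture. Bach1 was up by 0.65 (adjusted p = 4.92e-09). With IL-1b 2 fell, among them Mafg, a small Maf partner of BACH proteins (-0.24, adjusted p = 0.0179, and 0.0953 without IL-1b-treated replicate 3, when 0 of the 7 were called). Beside Ets1, 11 of 15 other ETS genes fell in culture, with a median of -0.58, and Elf4, an ETS factor of T cell quiescence, fell by 0.77 (adjusted p = 4.42e-14) and again by 0.38 with IL-1b (adjusted p = 1.21e-07). With IL-1b 4 ETS genes fell and 1 rose, which became 1 and 2 after the length and GC correction. Beside Satb1, 14 of 15 chromatin organisers of T cells fell in culture, with a median of -1.14, and 14 fell under library size scaling and on log2(TPM + 1), while 12 fell after the length and GC correction. Bcl11b, a zinc finger protein of T cell identity, fell by 0.95 (adjusted p = 6.59e-17), from 190 to 71.8 TPM, and fell by 0.27 with IL-1b (adjusted p = 1.39e-06, and 0.02 after the length and GC correction).

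Genes of the naive and effector states and of T cell identity were read from 3 further lists, which are general sets and not lists of targets of the members. Of 18 effector and memory regulators 10 fell and 4 rose in culture, led by Egr1, an early gene of receptor signalling, which fell by 4.07 ± 0.13 (adjusted p = 1.39e-17), from 32.8 to 1.72 TPM. With IL-1b 2 rose and 1 fell. The one that fell was Prdm1, which encodes Blimp-1 and is a known target of BACH2 (-0.6, adjusted p = 0.00124). Prdm1 had a mean of 2.65 TPM in fresh, 5.42 in cultured and 2.93 in IL-1b-treated cells. Of 19 genes of a naive T cell list, which holds surface and other genes, 5 rose and 10 fell in culture. With IL-1b 7 rose and 3 fell, where log2(TPM + 1) gave 2 and 14. Igfbp4 fell by 2.67 in culture (adjusted p = 1.32e-22), from 884 to 127 TPM, and Slfn2, a gene of T cell quiescence, rose by 0.41 with IL-1b (adjusted p = 1.57e-11). Of 15 T cell identity genes 9 fell and 5 rose in culture, among them Thy1, which fell by 1.06 (adjusted p = 3.84e-18), and 9 rose and 3 fell with IL-1b, where log2(TPM + 1) gave 2 and 8. Cd3d rose by 0.46 with IL-1b (adjusted p = 5.88e-11).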

How the data were processed

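RNA of 9 libraries was sequenced after RNAiso Plus extraction and NEBNext Ultra II Directional library preparation, per the labels' protocols. Reads were processed with the tools STAR and RSEM against mm10, per the submitters' processing notes, with versions and strand setting not given in the sources used here. The deposited tables hold, per the file headers, expected counts that share ambiguous reads and are not normalised, TPM as RSEM made it from expected counts and effective lengths, transcript lengths in bases, and FPKM values, deposited alike and not used here.

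The members and lists were chosen with earlier results of these data known. Identifiers were matched to GENCODE M21 symbols (55141 of 55487). Expected counts were rounded and fitted over all 9 libraries with the group as the only term in edgeR 4.0.16 under R 4.3.3 (TMM, filterByExpr, quasi-likelihood F test, Benjamini-Hochberg over 13043 genes, threshold 0.05). The biological coefficient of variation was 0.0665, and 3 counts in a library equal 0.13 to 0.222 CPM. Lengths were tested on the log2 scale with limma 3.58.1, per the deposited length values, where they varied by more than 1 base. TPM medians are of differences in group means of log2(TPM + 0.5), and ratios have no pseudocount. Replicates differed beyond counting error. Named genes are all members, their partners in the ratios, Ccr7, Il7r and S1pr1, and in each list the tested gene of at least 1 TPM in a group with the smallest adjusted p in culture and with IL-1b; S100a8 and the other markers at 0, Foxp3, and Sesn1 in culture are named beyond that rule, after their values were seen. A further gene that the rule names is not reported here.

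Alternatives were other scalings, other filters, limma-voom, DESeq2 1.42.0, log2(TPM + 0.1) and log2(TPM + 1) in limma, an offset of effective lengths, correction of each library for length and GC content by a smooth trend (mgcv 1.9.3), only the groups compared, a replicate block and leaving out each library. On simulated data with 50 genes changed per fold size the test recovered, at 1.2, 1.5, 2 and 4-fold, 24, 70, 90 and 96% in the setting of IL-1b-treated against cultured cells (12751 genes). In that of cultured against fresh cells (12758 genes) the shares were 22, 70, 72 and 96%, and in that of IL-1b-treated against fresh cells (12732 genes) 36, 80, 82 and 94%. No other genes were changed in the simulations, whereas 28.9 to 65.5% of all genes were called in the data. The adjustment was therefore stricter there, and these shares may not hold for the data. Tables were read in Python 3.11.15 (pandas 2.3.3, numpy 2.4.6), and matplotlib 3.10.9 drew the plots.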

Additional observations from a re-analysis of the deposited data

How the results depend on the processing

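Same-numbered libraries did not deviate together (correlations of -0.03 to 0.02 between groups). This cannot show whether the numbers pair the samples, since libraries of a shared origin could also deviate independently if the spread is technical. A replicate block left 8, 9 and 9 members called in IL-1b-treated against cultured, cultured against fresh and IL-1b-treated against fresh cells, as without it, and 3652, 7485 and 8454 of all genes against 3768, 7594 and 8539. Leaving out each library gave 8 to 9, 9 to 9 and 8 to 9 members, and 3024 to 3698, 7035 to 7835 and 8109 to 8539 genes. For IL-1b-treated against cultured cells the effective length offset gave 2151 genes and the correction for length and GC content 4 members and 2584 genes (556 lower, 2028 higher). There the all-gene median moved by -0.12 under library size scaling and by -0.25 on log2(TPM + 1), and the share of calls that were higher went from 54.1% to 26.7% and 6.1%, and to 78.5% after the length and GC correction.

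Signs turned as follows. In IL-1b-treated against cultured cells Id3 was -0.05 by library size, -0.16 on log2(TPM + 1) and -0.17 on log2(TPM + 0.1), and after the length and GC correction Foxp1, Klf2 and Ets1 were 0.03, 0.01 and 0.01. In cultured against fresh cells Klf2 was -0.04 and Klf3 -0.02 on both TPM scales, Foxp1 0.25 and Ets1 0.01 after the length and GC correction, and Foxp1 0 without cultured replicate 1. In IL-1b-treated against fresh cells library size gave Klf2 -0.05, Klf3 -0.07 and Bach2 -0.13, the TPM scales Klf2 -0.44, Klf3 -0.57 and Bach2 -0.53 and -0.54, the length offset Klf3 -0.02, that correction Foxp1 0.28 and Ets1 0.02, and leaving out IL-1b-treated replicate 2 Bach2 -0.02 (0.11, then called, without replicate 3). The cause was not tested. Id3 had 128 to 163 counts in each cultured or IL-1b-treated library.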
